A study of Homo sapiens with 24 samples.

Results

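The radiation effect on RNA levels was compared between NRF2 E79Q and NRF2 WT cells of the SAS line, an established line from a human oral squamous cell carcinoma, with every culture exposed to CB-839. All values come from this 1 line. The quantity followed throughout is a difference of differences on the log2 scale: irradiated minus unirradiated E79Q cells, minus irradiated minus unirradiated WT cells. Its members are 12 of the 24 libraries of the series, taken by their labels and not by any measured value. They are 3 of E79Q cells given CB-839 and radiation, 3 of E79Q cells with CB-839 alone, 3 of WT cells with CB-839 and radiation, and 3 of WT cells with CB-839 alone. All 12 had received CB-839 at 0.1 µM for 24 h, and the irradiated ones then received X-rays at 4 Gy, with RNA taken 24 h later. Whether the drug stayed on after radiation, when RNA of unirradiated cells was taken and how E79Q was introduced are not stated in the labels. The other 12 libraries repeat the same design without the drug (irradiated E79Q, unirradiated E79Q, irradiated WT and unirradiated WT cells, 3 each) and enter the estimate of the spread between libraries and the comparison at the end.

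NRF2, encoded by NFE2L2, is a transcription factor that drives genes for glutathione synthesis, detoxification and NADPH supply. KEAP1 binds it and directs its degradation, and E79Q changes an amino acid of the motif by which KEAP1 binds, so the protein escapes this control. CB-839 blocks the conversion of glutamine into glutamate. Glutamate is a building block of glutathione and is also traded for cystine by the transporter SLC7A11, an NRF2 target. When amino acids run short or unfolded protein builds up in the endoplasmic reticulum, phosphorylation of eIF2α raises translation of the transcription factor ATF4, which switches on amino acid synthesis, amino acid transport and tRNA charging genes. Ionizing radiation activates p53 and, through DNA damage signalling, NF-kB, whose targets include chemokines that draw neutrophils.

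The 24 libraries held 14285084 to 23640197 counts, and 15956 genes were tested. A gene is called here when its adjusted p was under 0.05 in edgeR's quasi-likelihood test with Benjamini-Hochberg adjustment over all 15956 genes, and every adjusted p below comes from that test. Levels are CPM, read counts scaled to library size, which do not allow levels of different genes to be compared since they are not divided by length. Summed CPM of 9 squamous epithelial markers was 1814 to 2119 in irradiated and 1715 to 1792 in unirradiated E79Q cells, and 2399 to 2528 in irradiated and 2684 to 2837 in unirradiated WT cells. Summed CPM of 18 markers of leukocytes, endothelium and fibroblasts was 8.33 to 12.45 over the 12 libraries, and MS4A1, DCN and LUM had no read in any of them. Results were also computed without 4 of the 24 libraries, chosen with earlier results of these data known, in which the deviation from the group mean rose with the GC content of the genes. Of these 4, library 2 of irradiated E79Q cells (r = 0.49 across genes), library 1 of irradiated WT cells (0.26) and library 3 of unirradiated WT cells (0.19) belong to the comparison, and library 1 of unirradiated E79Q cells without the drug (0.17) does not. Among E79Q libraries given drug and radiation, library 1 had an r of -0.39 and is not one of the 4. The labels do not say that replicates were separate cultures, so p-values measure the spread between these samples only. Nor do they say whether irradiated and unirradiated libraries were prepared together, so in each genotype radiation and such handling cannot be told apart, whereas a shift that was equal in both genotypes cancels in the difference.

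Under CB-839 the radiation effect differed between the 2 genotypes for 172 of 15956 genes (1.08%). For 114 of them (0.714% of all genes) the radiation effect was lower in E79Q than in WT cells, and for 58 (0.363%) it was higher. In 25 the difference exceeded 2-fold, 17 of them lower and 8 higher. The lower group took in amino acid response genes such as CHAC1 (log2 difference -1.37) and PSAT1 (-0.67), chemokine and NF-kB genes such as CXCL1 (-0.79) and TNFAIP3 (-0.70), and cytoskeletal and matrix genes such as ANKRD1 (-1.03) and PMEPA1 (-0.87). The higher group took in squamous genes such as KLK10 (1.22) and KRT5 (0.45) and the lipid synthesis regulator SREBF1 (0.74). Over all genes the median log2 difference was -0.013, and 1523 genes had an unadjusted p under 0.05. Median GC content was 55.7% in the 58 higher genes, 49.1% in the 114 lower ones and 49.2% in all tested genes, and 165 of the 172 were also called with GC and length trends removed. The count of 172 depended on single libraries: it was 92 and 104 without library 2 or 1 of unirradiated E79Q cells, and 107 and 104 without library 2 or 3 of irradiated WT cells. It was 252 without library 1 of irradiated E79Q cells, 229 without the 4 libraries that followed GC content and 40 when the 12 libraries were fitted alone.

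**Figure D1:**
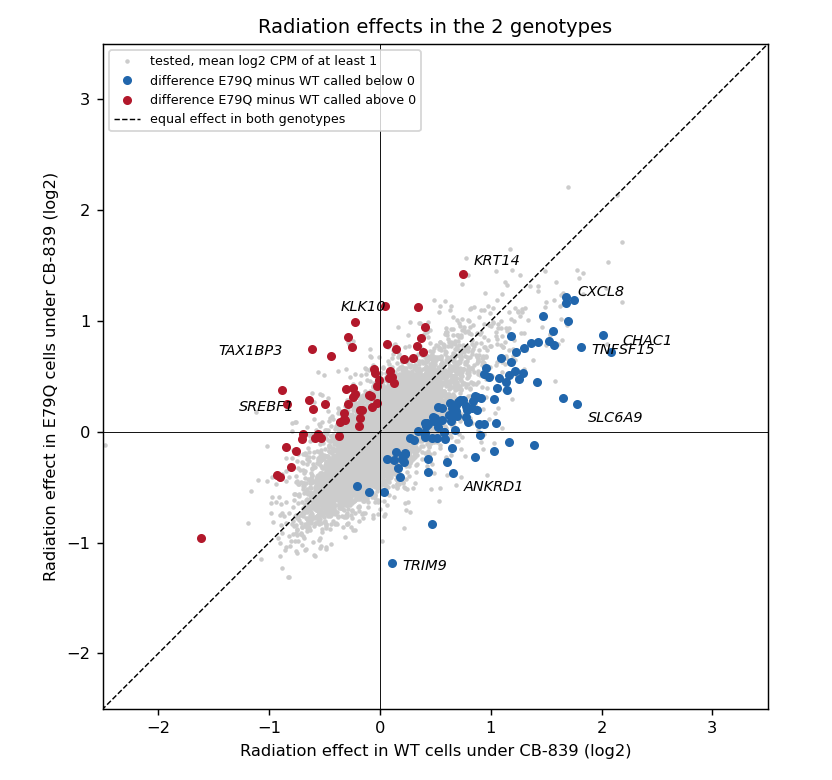
Radiation effect (log2) in E79Q cells on the vertical axis against that in WT cells on the horizontal axis, all under CB-839. Each point is a tested gene with a mean log2 CPM of at least 1. Blue marks a difference called below 0 (114 genes, of which 5 under that level are not drawn). Red marks a difference called above 0 (58 genes), grey marks the others, and the dashed line marks equal effects. Most blue points lie to the right of 0, where WT cells responded upward, and CHAC1, CXCL8 and TNFSF15 rose in both genotypes but less in E79Q cells.

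Each genotype taken alone responded broadly to radiation, with 4667 genes called in E79Q cells (29.2%), of which 2445 were higher (15.3%) and 2222 lower (13.9%), and 3774 in WT cells (23.7%), of which 2111 were higher (13.2%) and 1663 lower (10.4%). Without library 2 of irradiated E79Q cells 3073 genes were called in E79Q cells. Both arms called 2543 genes, 54.5% of those in E79Q and 67.4% of those in WT cells. Of these, 1399 rose in both, 1124 fell in both and 20 moved in opposite directions. Among the 114 genes with a lower effect in E79Q cells, 51 rose in both genotypes, 44 rose in WT cells and were not called in E79Q cells, 8 fell in E79Q and rose in WT cells, 10 fell in E79Q cells and were not called in WT cells, and 1 fell in both. Their median radiation effect was 0.13 in E79Q cells and 0.73 in WT cells (log2). Among the 58 genes with a higher effect, 18 rose in E79Q cells and were not called in WT cells, 15 were not called in E79Q cells and fell in WT cells, 12 rose in E79Q and fell in WT cells, 9 rose in both and 4 fell in both. The median effect of these 58 was 0.33 in E79Q cells and -0.24 in WT cells.

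The genotypes were closer to each other after radiation than before it for nearly all of these genes. All 114 lower genes had a higher mean in E79Q than in WT cells before radiation and 92 still did after it, and the gap was narrower after radiation in 109. The median gap, E79Q minus WT, was 0.31 with radiation and 0.91 without it (log2). Of the 58 higher genes, 56 were lower in E79Q than in WT cells before radiation and 42 after it, and the gap narrowed in 54, with a median of -0.25 with radiation and -0.77 without it. These gaps come from the same 12 libraries that gave the calls, so they describe the called genes and were not tested. The called difference is itself the gap with radiation minus the gap without it, so the selection sets the direction in which the gap moved. The share of narrower gaps over all genes was not computed.

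Targets of ATF4 were the list with the most calls: 11 of 35 tested members had a lower radiation effect in E79Q cells and 0 a higher one, with a median log2 difference of -0.38 against -0.013 over all genes. Of all genes 0.714% had a lower effect and 0.363% a higher one. In the arms, 12 of the 35 rose with radiation in E79Q cells and 29 in WT cells, against 15.3% and 13.2% of all genes. CHAC1, an enzyme that degrades glutathione, had 24.2, 31.4 and 30.1 CPM in irradiated E79Q cells and 18.9, 17.1 and 16.4 CPM in unirradiated E79Q cells. In WT cells the values were 19.6, 16.6 and 14.3 CPM with radiation and 2.60, 4.80 and 4.50 CPM without it. Unirradiated WT cells stood below the other 3 groups, and irradiated E79Q cells stood above them. The radiation effect on CHAC1 was 0.72 in E79Q cells and 2.09 in WT cells, a log2 difference of -1.37 (SE 0.21, adjusted p = 0.000342). SLC6A9, a glycine transporter, had 11.9, 13.5 and 12.4 CPM in irradiated E79Q cells and 11.8, 9.84 and 10.3 CPM in unirradiated E79Q cells. WT cells had 9.81, 7.77 and 7.81 CPM after radiation and 2.43, 2.12 and 2.87 CPM without it. The E79Q groups lay next to each other without overlap, irradiated WT cells just below them, and unirradiated WT cells far below. The difference for SLC6A9 was -1.53 (SE 0.21, adjusted p = 0.000104), with a call for the radiation effect in WT cells (1.78) and none in E79Q cells (0.25, adjusted p = 0.153).

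PSAT1, an aminotransferase of serine synthesis, had 272, 272 and 284 CPM in irradiated E79Q cells and 279, 281 and 261 CPM in unirradiated E79Q cells. With radiation WT cells had 204, 196 and 193 CPM, and without it 116, 126 and 128 CPM. Both E79Q groups overlapped, above both WT groups, and only the WT groups were separate from each other, giving a log2 difference of -0.67 (SE 0.07, adjusted p = 1.7e-06). ALDH1L2, a mitochondrial folate enzyme, was at 45.3 ± 11.7 CPM in irradiated and 52.8 ± 0.257 CPM in unirradiated E79Q cells, against 32.1 ± 1.38 CPM in irradiated and 17.6 ± 1.57 CPM in unirradiated WT cells (SD, n = 3 each), a difference of -1.09 (SE 0.16, adjusted p = 0.000342). Library 2 of irradiated E79Q cells, one of those that followed GC content, was at 31.9 CPM against 52.5 and 51.6 CPM in libraries 1 and 3, and without the 4 libraries the difference was -0.85. STC2, a secreted glycoprotein of the stress response, had 332, 338 and 354 CPM in irradiated E79Q cells and 252, 239 and 243 CPM in unirradiated E79Q cells. Irradiated WT cells were at 226, 223 and 213 CPM and unirradiated ones at 100.1, 104 and 109.8 CPM. All 4 groups were separate, in the order just given, and the difference was -0.59 (SE 0.06, adjusted p = 2.32e-06). TRIB3, a pseudokinase that restrains ATF4 signalling, was at 119.9 ± 12.5 CPM in irradiated and 96.5 ± 0.146 CPM in unirradiated E79Q cells, against 83.7 ± 3.56 CPM in irradiated and 45.5 ± 2.44 CPM in unirradiated WT cells, a difference of -0.57 (SE 0.10, adjusted p = 0.0018).

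**Figure D2:**
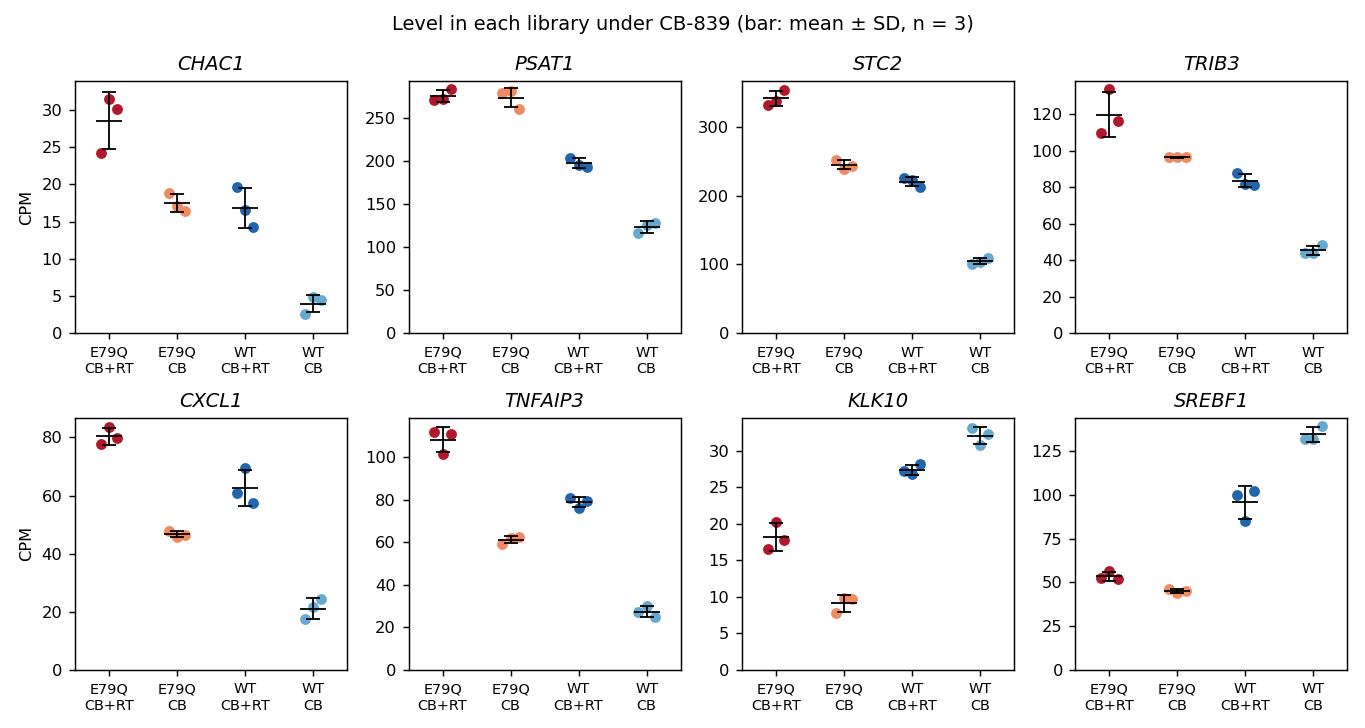
CPM of 8 genes in each library under CB-839, with E79Q cells on the left (CB+RT, CB-839 and radiation; CB, CB-839 alone) and WT cells on the right; bars give mean ± SD of 3 libraries and every axis starts at 0. In the 6 genes from CHAC1 to TNFAIP3 unirradiated WT cells were the lowest group, and in KLK10 and SREBF1 they were the highest.

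SESN2, a leucine sensor that holds back mTORC1, differed by -0.66 (SE 0.13, adjusted p = 0.00673), and SLC1A5, a glutamine transporter, by -0.38 (SE 0.08, adjusted p = 0.00673). ASNS, the asparagine synthetase, was called at -1.34 (SE 0.33, adjusted p = 0.0443) but rested on low counts, with means of 4.77 and 3.88 CPM in irradiated and unirradiated E79Q cells and 3.73 and 1.19 CPM in irradiated and unirradiated WT cells. It was not called in 14 of 24 fits that left out 1 library (adjusted p up to 0.184). The 2 other members called were PHGDH (-0.41), the first enzyme of serine synthesis, and PCK2 (-0.64), a mitochondrial enzyme that makes phosphoenolpyruvate, both named after their values were seen. ATF4 itself was not called, at -0.23 (SE 0.09, adjusted p = 0.301), though it was with GC and length trends removed (-0.29, adjusted p = 0.00405). Nor were calls made for DDIT3, which encodes the stress factor CHOP (-0.31, adjusted p = 0.649), GDF15, a stress cytokine (-0.38, adjusted p = 0.494), or the folate enzyme MTHFD2 (-0.14, adjusted p = 0.4). Between 9 and 16 of the 35 genes were called when single libraries were left out, 14 without the 4 libraries and 6 with the 12 libraries alone. SESN2 (adjusted p = 0.0818) and SLC1A5 (adjusted p = 0.15) were not called in that last fit.

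Cytosolic aminoacyl-tRNA synthetases, which load amino acids onto tRNA, had 5 of 20 members lower and 0 higher (median -0.21). Of all genes 0.714% were lower and 0.363% higher. GARS, for glycine, was at 304 ± 19.7 CPM in irradiated and 306 ± 4.89 CPM in unirradiated E79Q cells, against 252 ± 12.4 CPM in irradiated and 189.6 ± 2.11 CPM in unirradiated WT cells, a difference of -0.42 (SE 0.07, adjusted p = 0.000682). CARS, for cysteine, differed by -0.53 (SE 0.10, adjusted p = 0.0032) and WARS, for tryptophan, by -0.34 (SE 0.07, adjusted p = 0.0112). YARS (-0.34) and MARS (-0.36) completed the count and were named after their values were seen. Without library 3 of irradiated E79Q cells, library 1 of unirradiated E79Q cells or library 1 of unirradiated WT cells 2 members were called, and without library 1 of irradiated or library 2 of unirradiated WT cells 3 were. Set against the same shares of all genes, 3 of 23 unfolded protein response genes were lower and 0 higher (median -0.15). They were HSPA5, the chaperone of the endoplasmic reticulum (-0.33, SE 0.06, adjusted p = 0.00282), PPP1R15A, which guides dephosphorylation of eIF2α (-0.49, SE 0.10, adjusted p = 0.00997), and HERPUD1, which helps clear misfolded proteins (-0.44, SE 0.10, adjusted p = 0.0266). HERPUD1 was not called in 10 of 24 fits that left out 1 library (adjusted p up to 0.119). It was called with GC and length trends removed (adjusted p = 0.00581) and without the 4 libraries (adjusted p = 0.00105). PPP1R15A was not called without library 1 of unirradiated E79Q or of unirradiated WT cells (adjusted p up to 0.0536). Without either of those 2 libraries, 1 member of the unfolded protein response list was called. With the 12 libraries fitted alone, 0 tRNA synthetases and 0 unfolded protein response genes were called lower. Adjusted p was then 0.06 for GARS, 0.0938 for CARS and 0.1 for HSPA5.

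Glutamine metabolism and transport, where CB-839 acts, had 4 of 29 members lower and 1 higher (median -0.014), against 0.714% and 0.363% of all genes. PSAT1, SLC1A5 and ASNS are shared with the ATF4 list. GPT2, a mitochondrial transaminase that pairs glutamate with alanine, was at 96.3 ± 9.81 CPM in irradiated and 79.5 ± 4.59 CPM in unirradiated E79Q cells, against 77.4 ± 2.33 CPM in irradiated and 43.3 ± 1.90 CPM in unirradiated WT cells, a difference of -0.56 (SE 0.11, adjusted p = 0.00485). With the 12 libraries fitted alone GPT2 was not called (adjusted p = 0.06). GLUL, which makes glutamine from glutamate, was the member with a higher effect, at 0.29 (SE 0.07, adjusted p = 0.0316). It was not called in 9 of 24 fits that left out 1 library (adjusted p up to 0.164). SLC7A11, at 449 and 528 CPM in irradiated and unirradiated E79Q cells and 200.2 and 163 CPM in irradiated and unirradiated WT cells, was not called (-0.53, SE 0.17, adjusted p = 0.177). It was called lower with GC and length trends removed (-0.39, adjusted p = 1.91e-06) and without the 4 libraries (-0.36, adjusted p = 0.000776).

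To show the sequence context of the called stress genes, promoters of RefSeq (GRCh38.p14), from 250 bases before to 50 after the start of each gene, were searched on both strands for the letters TGATGNAA, the core shared by many sites bound by ATF4 with a C/EBP partner. The letters were found in 3.67% of 27305 promoters, in 9 of 89 (10.1%) with a lower radiation effect in E79Q cells and in 1 of 47 (2.13%) with a higher one. Of the 172 called genes 136 had a promoter in the table. Among tested members, 5 of 27 ATF4 targets and 6 of 16 aminoacyl-tRNA synthetases held the letters, and among members called lower 2 of 10 and 2 of 4 did. The stretches below are shown since they hold the match in genes described above. Capitals mark it, and each runs 5′ to 3′ on the strand of its gene. In CHAC1 and ASNS the match lies in what GENCODE annotates as an exon of a transcript that starts further upstream, so 30 bases are given. CHAC1 is at chr15:40953251-40953280 on the plus strand, with the match 209 bases before the start, ASNS at chr7:97872458-97872487 on the minus strand, with the match 68 bases before the start, and HERPUD1 at chr16:56931920-56932019 on the plus strand, with the match 176 bases before the start.
CHAC1: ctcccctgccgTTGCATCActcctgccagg
ASNS: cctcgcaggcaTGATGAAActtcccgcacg
HERPUD1: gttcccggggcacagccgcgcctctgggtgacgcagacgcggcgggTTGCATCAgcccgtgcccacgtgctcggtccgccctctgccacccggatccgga
CHAC1 and HERPUD1 carry the same 8 letters, read on the opposite strand to ASNS. A match describes the letters only and says nothing of whether a factor bound there.

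Most chemokine genes rose with radiation in both genotypes, and some of them rose less in E79Q cells. Of 17 myeloid chemokines and cytokines tested, 13 rose in each genotype, against 15.3% of all genes in E79Q and 13.2% in WT cells. The radiation effect was lower in E79Q cells for 4 and higher for 0, against 0.714% and 0.363% of all genes. Their median difference was -0.33, and 6 were lower without the 4 libraries. CXCL1, which draws neutrophils through CXCR2, had 77.6, 83.5 and 79.9 CPM in irradiated E79Q cells and 47.8, 45.8 and 46.3 CPM in unirradiated E79Q cells. The WT libraries held 60.99, 69.4 and 57.5 CPM with radiation and 17.4, 21.5 and 24.3 CPM without. All 4 groups were separate, and unirradiated E79Q cells lay between the WT groups. Its radiation effect was 0.78 in E79Q cells and 1.57 in WT cells, a difference of -0.79 (SE 0.14, adjusted p = 0.00241). CCL20, which draws CCR6-bearing lymphocytes and dendritic cells, was at 29.7 ± 3.74 CPM in irradiated and 21.3 ± 1.26 CPM in unirradiated E79Q cells, against 17.1 ± 1.62 CPM in irradiated and 7.12 ± 0.847 CPM in unirradiated WT cells, a difference of -0.78 (SE 0.16, adjusted p = 0.00884). CXCL8, another neutrophil attractant, had 56.8, 53.02 and 54.04 CPM in irradiated E79Q cells and 24.4, 25.3 and 23.5 CPM in unirradiated E79Q cells. In WT cells the values were 20.3, 23.3 and 22.1 CPM with radiation and 6.996, 6.46 and 6.98 CPM without it. Irradiated E79Q cells were the highest group of CXCL8, and unirradiated E79Q cells reached above each irradiated WT library.

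The difference for CXCL8 was -0.52 (SE 0.12, adjusted p = 0.0223), but it was not called in 8 of 24 fits that left out 1 library (adjusted p up to 0.102) or with GC and length trends removed (adjusted p = 0.243). CXCL3, a close paralog of CXCL1 whose reads can be shared with it in counting, was called at -1.14 (SE 0.27, adjusted p = 0.0335) and was not called in 10 of those 24 fits (adjusted p up to 0.166) or without the 4 libraries (adjusted p = 0.385). Accordingly 2 of the 17 were called without library 3 of irradiated or library 2 of unirradiated E79Q cells, and likewise without library 2 of irradiated or library 1 or 2 of unirradiated WT cells. With the 12 libraries fitted alone 1 of the 17 was called lower, and CCL20 was not called (adjusted p = 0.0713). IL6 (-0.33, adjusted p = 0.694), CSF2 (-0.46, adjusted p = 0.612) and CSF1 (0.23, adjusted p = 0.688), cytokines that act on myeloid cells, were not called.

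Of 24 NF-kB subunits and targets 2 were lower and 0 higher, against 0.714% and 0.363% of all genes. Their median was -0.20, and 4 were lower and 1 higher without the 4 libraries. With radiation 15 rose in E79Q and 17 in WT cells, against 15.3% and 13.2% of all genes. TNFAIP3, the ubiquitin-editing enzyme that brakes NF-kB, had 112, 102 and 111 CPM in irradiated E79Q cells and 59.3, 62.02 and 62.4 CPM in unirradiated E79Q cells. WT cells had 80.7, 76.1 and 79.6 CPM after radiation and 27.2, 30.2 and 24.8 CPM without it. The groups were separate, and its difference was -0.70 (SE 0.10, adjusted p = 0.000132). IRAK2, a kinase of interleukin 1 and Toll-like receptor signalling, was called at -0.51 (SE 0.13, adjusted p = 0.0437) and was not called in 20 of 24 fits that left out 1 library (adjusted p up to 0.18), which leaves 1 member called in 19 of them, while 3 were called without library 2 of irradiated E79Q cells. IRAK2 was called with GC and length trends removed (adjusted p = 0.00581) and without the 4 libraries (adjusted p = 0.0158). TNFSF15, a ligand of the tumour necrosis factor family, was at 27.5 ± 1.26 CPM in irradiated and 16.1 ± 1.62 CPM in unirradiated E79Q cells, against 21.4 ± 1.26 CPM in irradiated and 6.10 ± 0.362 CPM in unirradiated WT cells, a difference of -1.04 (SE 0.13, adjusted p = 1.76e-05). TLR4, the receptor for lipopolysaccharide, differed by -0.97 (SE 0.21, adjusted p = 0.0136), and was not called without library 2 of irradiated or library 3 of unirradiated WT cells (adjusted p up to 0.0587). CD274, the gene of PD-L1, a brake on T cells, was at 19.6 ± 2.57 CPM in irradiated and 18.2 ± 1.58 CPM in unirradiated E79Q cells, against 18.6 ± 1.92 CPM in irradiated and 11.2 ± 1.23 CPM in unirradiated WT cells, and its difference did not pass (-0.62, SE 0.16, adjusted p = 0.0598), though it was called in 11 of 37 alternatives, among them that with GC and length trends removed (adjusted p = 0.0187).

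The kappaB motif, the consensus site of NF-kB, was searched in the same promoters on both strands. It was found in 5.72% of all promoters, in 10 of 89 (11.2%) with a lower and in 10 of 47 (21.3%) with a higher radiation effect in E79Q cells, and so in genes called either way. Among tested list members, 9 of 20 NF-kB genes and 5 of 12 chemokine genes held it. The stretches of CXCL1 (chr4:73869269-73869368), CCL20 (chr2:227813718-227813817) and TNFAIP3 (chr6:137867188-137867217), all on the plus strand, are shown as 3 of the called genes described above that hold it, with capitals on the motif. In TNFAIP3 the matches lie in what GENCODE annotates as an exon of a transcript that starts further upstream, so 30 bases are given.
CXCL1: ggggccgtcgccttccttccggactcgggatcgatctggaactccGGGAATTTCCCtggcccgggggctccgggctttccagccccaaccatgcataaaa
CCL20: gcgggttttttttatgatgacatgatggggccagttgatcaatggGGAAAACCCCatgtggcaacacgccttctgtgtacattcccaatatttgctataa
TNFAIP3: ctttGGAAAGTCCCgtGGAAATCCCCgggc
In CXCL1 the capitals cover 2 overlapping matches, 79 and 78 bases before the start. CCL20 has 1 match at 79 bases, and TNFAIP3 has 2, at 67 and 55 bases. The same promoters were also searched for TGACNNNGC, the core of the antioxidant response element bound by NRF2, which was found in 13.6% of all promoters, in 18 of 89 (20.2%) lower and in 5 of 47 (10.6%) higher genes.

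Of 32 mesenchymal and TGF-beta response genes 5 were lower and 1 higher (median -0.088), and of 17 YAP targets 2 were lower and 0 higher (median -0.040). Of all genes 0.714% were lower and 0.363% higher. ANKRD1, a muscle ankyrin repeat protein and YAP target, had 314, 257 and 261 CPM in irradiated E79Q cells and 359.98, 356 and 359.9 CPM in unirradiated E79Q cells. With radiation WT cells had 167, 184 and 169 CPM, and without it 109.7, 117 and 103 CPM. It fell with radiation in E79Q cells (-0.37) and rose in WT cells (0.66), a difference of -1.03 (SE 0.10, adjusted p = 9.91e-07). CTGF, a matricellular YAP target, was at 109.9 ± 4.39 CPM in irradiated and 96.1 ± 2.55 CPM in unirradiated E79Q cells, against 64.5 ± 0.436 CPM in irradiated and 37.5 ± 1.68 CPM in unirradiated WT cells, a difference of -0.59 (SE 0.08, adjusted p = 0.000166). TPM1, which encodes an actin-binding tropomyosin, fell in E79Q cells (-0.41) and rose in WT cells (0.18), and so did HMGA2, a chromatin protein of mesenchymal cells (-0.24 and 0.19).

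PMEPA1, a feedback inhibitor of TGF-beta signalling, had 149, 166 and 155 CPM in irradiated E79Q cells and 155, 145 and 149 CPM in unirradiated E79Q cells. Irradiated WT cells were at 143, 133 and 127 CPM and unirradiated ones at 68.4, 70.3 and 72.05 CPM. The E79Q groups overlapped, irradiated WT cells lay just below them and unirradiated WT cells stood apart, and the difference was -0.87 (SE 0.09, adjusted p = 2.32e-06). FN1, fibronectin, was at 1966 ± 71.6 CPM in irradiated and 1367 ± 60.3 CPM in unirradiated E79Q cells, against 2483 ± 41.6 CPM in irradiated and 1298 ± 79.1 CPM in unirradiated WT cells, a difference of -0.41 (SE 0.07, adjusted p = 0.00289). INHBA (-0.74) and LOX (-0.70) were lower too and were named after their values were seen. SPARC, a matrix glycoprotein, was the higher member of the mesenchymal list (0.31, SE 0.06, adjusted p = 0.00548). It was not called with the 12 libraries fitted alone (adjusted p = 0.123). Of 27 secreted proteases and senescence-associated factors 20 rose with radiation in each genotype, against 15.3% of all genes in E79Q and 13.2% in WT cells. The effect was lower in E79Q cells for 5 and higher for 1 (median -0.20), against 0.714% and 0.363% of all genes. PLAU, which encodes urokinase, an activator of plasminogen, differed by -0.56 (SE 0.09, adjusted p = 0.000699) and SERPINB2, an inhibitor of urokinase, by -0.42 (SE 0.08, adjusted p = 0.00421). SERPINB2 was not called with the 12 libraries fitted alone (adjusted p = 0.0938). MMP1 (-0.38) and HBEGF (-0.43), named after their values were seen, were lower as well. IGFBP3, a carrier of insulin-like growth factors, was the higher one (0.60, SE 0.13, adjusted p = 0.0193) and was not called in 4 of 24 fits that left out 1 library (adjusted p up to 0.0678).

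Against 0.714% of all genes lower and 0.363% higher, 3 of 27 immediate early genes were lower and 0 higher (median -0.076, with 5 lower without the 4 libraries). The 3 lower ones were feedback inhibitors of ERK signalling, but DUSP9, an ERK phosphatase outside the list that was named after its value was seen, was called higher (0.71). DUSP4, a phosphatase of ERK, was at 112 ± 4.73 CPM in irradiated and 76.6 ± 4.20 CPM in unirradiated E79Q cells, against 69.9 ± 1.88 CPM in irradiated and 30.04 ± 3.30 CPM in unirradiated WT cells, a difference of -0.67 (SE 0.11, adjusted p = 0.000733). DUSP6, another ERK phosphatase, differed by -0.61 (SE 0.10, adjusted p = 0.00199) and SPRY4 by -0.55 (SE 0.10, adjusted p = 0.00344). Set against the same shares, 3 of 34 p53 targets were lower and 0 higher (median 0.036), among them CDKN1A and SESN2, which is also on the ATF4 list. CDKN1A, the gene of the p21 inhibitor of cyclin-dependent kinases, had 132, 158 and 146 CPM in irradiated E79Q cells and 64.8, 60.2 and 62.8 CPM in unirradiated E79Q cells. The WT libraries held 92.98, 89.9 and 84.05 CPM with radiation and 26.3, 25.7 and 31.2 CPM without. It rose by 1.21 in E79Q and by 1.68 in WT cells on the log2 scale. The difference, -0.47 (SE 0.12, adjusted p = 0.0481), was near the threshold and was not called in 20 of 24 fits that left out 1 library (adjusted p up to 0.207). CDKN1A was called with GC and length trends removed (-0.53, adjusted p = 7.41e-05) and without the 4 libraries (-0.59, adjusted p = 3.29e-05). MDM2, which degrades p53, changed in neither genotype's test (0.02 in E79Q and 0.09 in WT cells, adjusted p = 0.877 and 0.5).

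**Figure D3:**
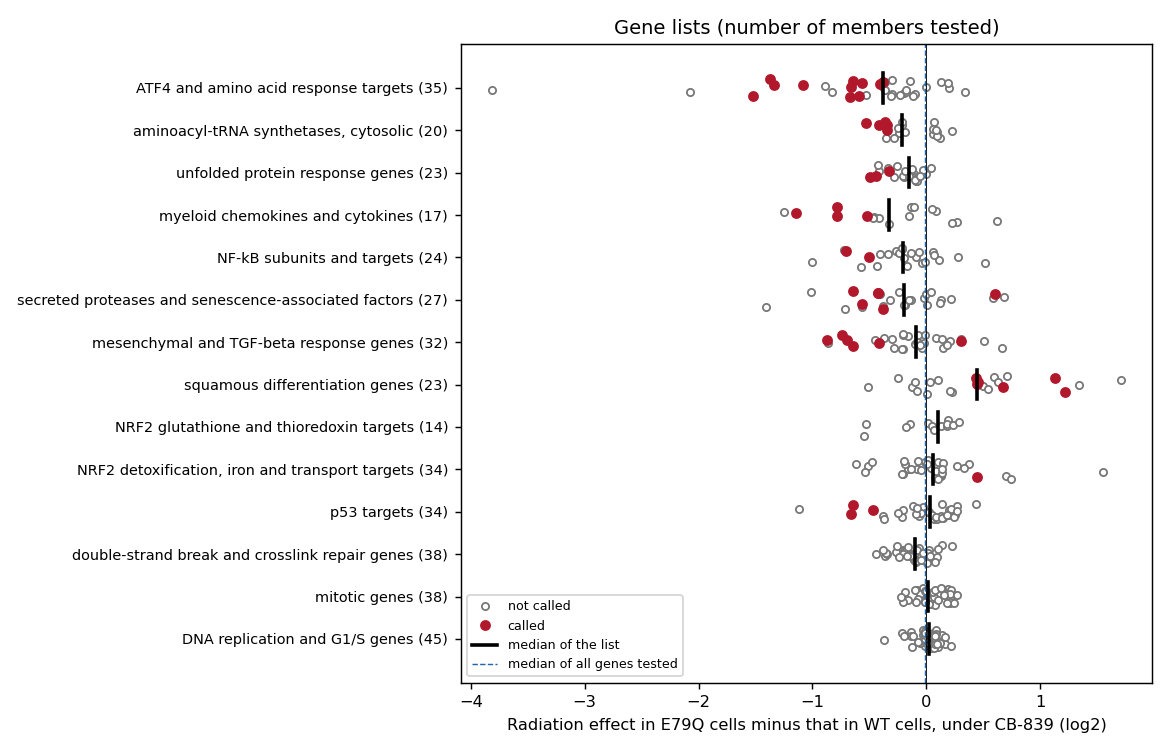
Difference in radiation effect, E79Q minus WT cells under CB-839 (log2, horizontal axis), of each tested member of 14 gene lists. Red points are called genes, open points are not, black bars are list medians and the dashed line is the median of all genes (-0.013); the 2 open ATF4 targets farthest to the left were not called. The ATF4 median lay at -0.38 and the squamous median at 0.45.

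Squamous differentiation genes went the other way. Of 23 tested, 6 had a higher radiation effect in E79Q cells and 0 a lower one, against 0.363% and 0.714% of all genes. Their median log2 difference was 0.45. Without the drug, 5 of the 23 were higher and 0 lower (median 0.40). KLK10, a secreted kallikrein protease of stratified epithelium, had 16.5, 20.2 and 17.8 CPM in irradiated E79Q cells and 7.79, 9.91 and 9.66 CPM in unirradiated E79Q cells. In WT cells the values were 27.2, 26.8 and 28.2 CPM with radiation and 33.2, 30.8 and 32.3 CPM without it. It rose with radiation in E79Q cells (0.99) and fell in WT cells (-0.23), the groups did not overlap, and the difference was 1.22 (SE 0.13, adjusted p = 1.7e-06). KLK10 was the 1 gene called against a null of 1.5-fold. ELF3, an epithelial transcription factor, was at 7.18 ± 0.855 CPM in irradiated and 4.45 ± 0.654 CPM in unirradiated E79Q cells, against 14.1 ± 0.495 CPM in irradiated and 19.1 ± 2.47 CPM in unirradiated WT cells. It rose in E79Q and fell in WT cells, a difference of 1.13 (SE 0.16, adjusted p = 0.000104). KRT5, a basal keratin, was at 745 ± 96.3 CPM in irradiated and 700.4 ± 20.4 CPM in unirradiated E79Q cells, against 1065 ± 56.4 CPM in irradiated and 1363 ± 58.8 CPM in unirradiated WT cells, a difference of 0.45 (SE 0.09, adjusted p = 0.00529). KRT14, its partner keratin, differed by 0.67 (SE 0.15, adjusted p = 0.0194), but was not called in 5 of 24 fits that left out 1 library (adjusted p up to 0.079). KRT17 (0.44), a keratin whose reads can be shared with KRT14, and the kallikrein KLK5 (0.46) completed the 6 and were named after their values were seen. Without library 2 of unirradiated E79Q cells, or library 3 of irradiated or of unirradiated WT cells, 3 of the 23 were called, and without library 3 of irradiated E79Q, 1 of unirradiated E79Q or 2 of irradiated WT cells 4 were. With the 12 libraries fitted alone 2 of the 23 were called higher. KRT5 (adjusted p = 0.126) and SFN (adjusted p = 0.0938) were not called in that fit. The summed level of the 9 squamous markers, 4 of which were called here (KRT5, KRT14, KRT17 and SFN, at 0.53, SE 0.10, adjusted p = 0.00344), was given above and was lower in E79Q than in WT cells with and without radiation. KRT5, at a median of 941.9 CPM over the 12 libraries, is the largest part of that sum, followed by SFN at 397 CPM. The sum therefore does not show the level of each marker. In bulk RNA, fewer cells expressing such genes and less RNA per cell cannot be told apart.

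A pair of lipid synthesis genes also had a higher radiation effect in E79Q cells. SREBF1, the transcription factor of fatty acid and cholesterol synthesis, had 52.3, 56.6 and 51.97 CPM in irradiated E79Q cells and 46.2, 44.1 and 45.03 CPM in unirradiated E79Q cells. WT cells had 99.95, 85.02 and 102 CPM after radiation and 132, 132 and 139 CPM without it. It rose with radiation in E79Q cells (0.25) and fell in WT cells (-0.49), the groups were separate, E79Q cells lay below WT cells throughout, and the difference was 0.74 (SE 0.09, adjusted p = 1.1e-05). SCD, the desaturase of stearic acid, was at 193 ± 11.3 CPM in irradiated and 201 ± 4.59 CPM in unirradiated E79Q cells, against 448 ± 12.7 CPM in irradiated and 675 ± 18.7 CPM in unirradiated WT cells. Its level fell with radiation in WT cells (-0.59) and was not called in E79Q cells (-0.06, adjusted p = 0.346), a difference of 0.53 (SE 0.06, adjusted p = 1.33e-05). SREBF1 was the 1 called member of 25 cholesterol genes and SCD that of 12 fatty acid synthesis genes, while 0.363% of all genes were called higher. ABCA1, which exports cholesterol from cells, differed by 0.78 (SE 0.17, adjusted p = 0.0182), but was not called without library 3 of irradiated or of unirradiated E79Q cells (adjusted p up to 0.0682).

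Of 9 checkpoint ligands 1 was higher and 1 lower, against 0.363% and 0.714% of all genes. VSIR, which encodes the checkpoint protein VISTA, had 20.6, 27.00 and 22.8 CPM in irradiated E79Q cells and 18.8, 17.1 and 21.96 CPM in unirradiated E79Q cells. With radiation WT cells had 41.04, 36.96 and 39.7 CPM, and without it 60.3, 59.2 and 63.9 CPM. It rose in E79Q (0.28) and fell in WT cells (-0.64), a difference of 0.92 (SE 0.12, adjusted p = 3.29e-05). NT5E, the enzyme CD73 that makes adenosine, went the other way at -0.37 (SE 0.09, adjusted p = 0.0347), and was not called in 9 of 24 fits that left out 1 library (adjusted p up to 0.118). TNFSF9, the ligand of 4-1BB, was at 6.88 ± 0.960 CPM in irradiated and 3.82 ± 0.275 CPM in unirradiated E79Q cells, against 3.08 ± 0.376 CPM in irradiated and 3.77 ± 0.295 CPM in unirradiated WT cells, a difference of 1.15 (SE 0.26, adjusted p = 0.0196) that was not called in 4 of those fits (adjusted p up to 0.0711). OTUD1, a deubiquitinase, fell with radiation in WT cells (-0.84) and was not called in E79Q cells (0.25), a difference of 1.09 (SE 0.14, adjusted p = 6.27e-05). CRISPLD2 differed by 1.26 (SE 0.26, adjusted p = 0.00884), but was not called with the 12 libraries fitted alone (adjusted p = 0.0938). TAX1BP3, with 1.36 (SE 0.30, adjusted p = 0.0193), had means of 5.52 and 3.26 CPM in irradiated and unirradiated E79Q cells and 3.39 and 5.19 CPM in irradiated and unirradiated WT cells. TAX1BP3 was not called in 5 of 24 fits that left out 1 library (adjusted p up to 0.0668).

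NRF2 targets, which E79Q is known to raise, are set here against the 1.08% of all genes called in the difference under CB-839. Lists of this size would hold few calls or none at that share. Of 34 detoxification, iron and transport targets 22 rose with radiation in E79Q and 16 in WT cells, against 15.3% and 13.2% of all genes. In the difference 1 was called (2.94%, median 0.058). That gene was TRIM16 (0.44, SE 0.11, adjusted p = 0.0435), which has a near-identical copy in TRIM16L and was not called in 22 of 24 fits that left out 1 library (adjusted p up to 0.202). Of 14 glutathione and thioredoxin targets 0 were called (median 0.10), and of 13 NADPH and pentose phosphate enzymes and 10 NRF2 partners 0 were either. NQO1, a quinone reductase, had 695, 842 and 728 CPM in irradiated E79Q cells and 672, 604 and 598 CPM in unirradiated E79Q cells. Irradiated WT cells were at 414, 399 and 386 CPM and unirradiated ones at 326, 355 and 402 CPM. Both E79Q groups lay above both WT groups, and the difference in radiation effect was 0.13 (SE 0.09, adjusted p = 0.708). TXNRD1, thioredoxin reductase, differed by 0.01 (adjusted p = 0.975), GCLM, of glutathione synthesis, by 0.18 (adjusted p = 0.404), HMOX1, heme oxygenase, by 0.70 (adjusted p = 0.32) and AKR1C1, an aldo-keto reductase with close paralogs, by -0.16 (adjusted p = 0.758). NFE2L2 (-0.15, adjusted p = 0.621) and KEAP1 (0.13, adjusted p = 0.694) were not called.

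The remaining genes with the largest differences belong to no list above. VGF, a secreted neuropeptide precursor, was at 3.67 ± 0.368 CPM in irradiated and 4.003 ± 0.386 CPM in unirradiated E79Q cells, against 3.85 ± 0.693 CPM in irradiated and 1.47 ± 0.0560 CPM in unirradiated WT cells, a difference of -1.51 (SE 0.29, adjusted p = 0.00524). ANO8, at -1.30, TRIM9, a ubiquitin ligase, at -1.29, and TMC8, at -1.21, were lower too, and they were not called in 7, 3 and 6 of 24 fits that left out 1 library (adjusted p up to 0.158, 0.0797 and 0.107). C1orf116, an epithelial gene, was at 45.6 ± 2.42 CPM in irradiated and 34.7 ± 1.17 CPM in unirradiated E79Q cells, against 57.1 ± 3.05 CPM in irradiated and 67.6 ± 2.71 CPM in unirradiated WT cells and was higher (0.64, SE 0.09, adjusted p = 0.000166). TNS1, which encodes tensin (0.73), PHLDB3 (1.02) and DEPP1 (1.09) were higher as well, and they were not called in 8, 13 and 7 of those fits (adjusted p up to 0.181, 0.136 and 0.16).

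Genes of DNA repair, replication and division held no call in the difference in the fit of all libraries. Of all genes 1.08% were called there, and lists of this size would hold few calls or none at that share. Of 38 double-strand break and crosslink repair genes 24 fell with radiation in E79Q and 14 in WT cells, against 13.9% and 10.4% of all genes. In the difference 0 were called (median -0.10). That median was -0.028 with GC and length trends removed and 0.007 without the 4 libraries. DNA replication and G1/S genes (0 of 45, median 0.027), mitotic genes (0 of 38, median 0.017), clustered histones (0 of 12), proteasome subunits (0 of 33), heat shock proteins (0 of 17), the TCA cycle (0 of 28), lysosome and autophagy genes (0 of 26), interferon-stimulated genes (0 of 32), MHC class I presentation (0 of 20) and metallothioneins (0 of 4, but 2 lower without the 4 libraries) held no call either. Mitotic genes had 3 members called higher in DESeq2 and 2 with GC and length trends removed, and the TCA cycle had 1 in each. TOP2A, the topoisomerase of dividing cells, was at 397 ± 128 CPM in irradiated and 558 ± 30.5 CPM in unirradiated E79Q cells, against 403 ± 66.8 CPM in irradiated and 545 ± 48.3 CPM in unirradiated WT cells, a difference of -0.06 (adjusted p = 0.96). Its lowest library, at 255 CPM, was again library 2 of irradiated E79Q cells. Of 32 hypoxia and glycolysis genes LDHA, lactate dehydrogenase, was called (0.24, SE 0.05, adjusted p = 0.0119; not without library 2 or 3 of unirradiated E79Q cells, adjusted p up to 0.068). Of 13 mitochondrially encoded genes MT-CO3 (0.37, SE 0.09, adjusted p = 0.0232) and MT-ND3 (0.49, SE 0.12, adjusted p = 0.037) were called, and they were not called in 5 and 8 of 24 fits that left out 1 library (adjusted p up to 0.0727 and 0.156), while 5 of the 13 were called higher without the 4 libraries. In cells without the drug 6 of the 13 were higher and 0 lower (median 0.50, against 0.15 under CB-839). Of the 8 tested markers of leukocytes, endothelium and fibroblasts 0 were called. A p that misses the threshold does not show that genotypes responded alike; the median standard error of the difference was 0.17 on the log2 scale.

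The same difference of differences in cells without CB-839, from the other 12 libraries, called 201 genes (1.26%), 130 higher (0.815%) and 71 lower (0.445%). The split depended on scaling, with 259 higher and 313 lower once GC and length trends were removed and 158 higher and 161 lower in DESeq2. The count was 381 without library 2 of the drug-treated, irradiated E79Q cells and 507 without the 4 libraries. Among the libraries without the drug, it was 107 to 131 when library 2 or 3 of irradiated E79Q cells, library 1 of unirradiated E79Q cells, any library of irradiated WT cells or library 1 or 2 of unirradiated WT cells was left out. Of the 201 genes, 45 were also called under the drug, 26.2% of the calls with and 22.4% of those without it. In 28 the direction was the same, among them KLK10 (1.22 with and 0.93 without the drug), ANKRD1 (-1.03 and -0.72), PMEPA1 (-0.87 and -0.52), PLAU (-0.56 and -0.51) and HMGA2 (-0.44 and -0.51). In the remaining 17 the effect of radiation was lower in E79Q cells under CB-839 and higher without it, and 12 of the named genes were among these. STC2 (-0.59 with and 0.57 without the drug), CHAC1 (-1.37 and 1.06), CCL20 (-0.78 and 0.78), CXCL8 (-0.52 and 0.80) and CDKN1A (-0.47 and 0.72) were of this kind.

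**Figure D4:**
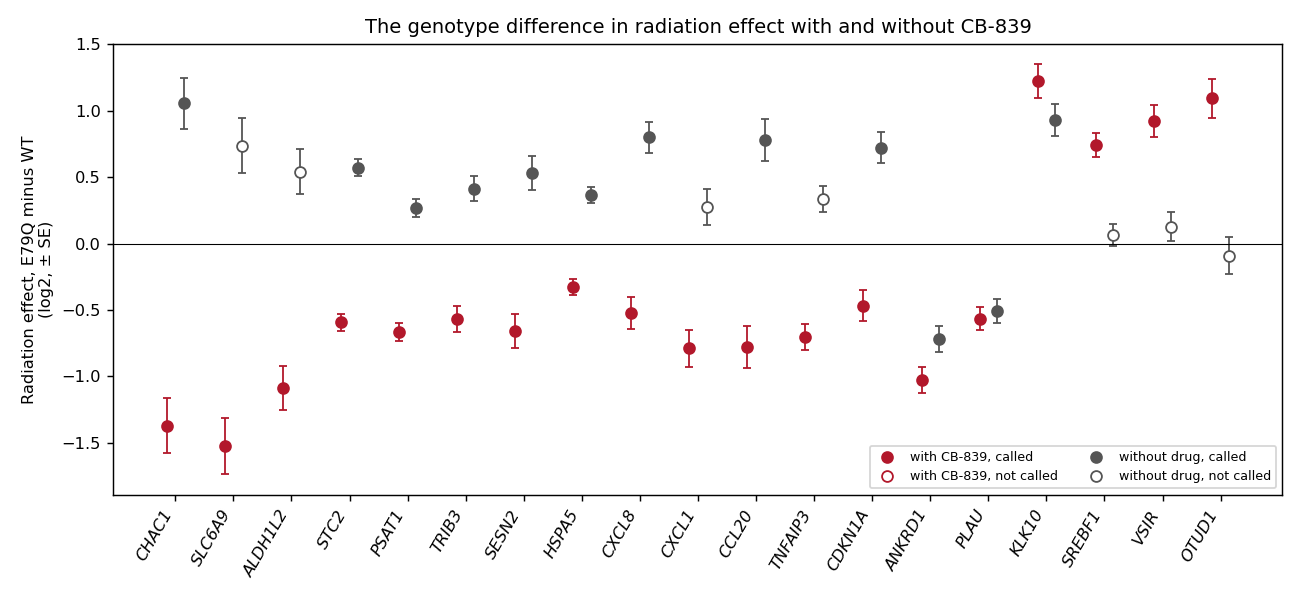
Log2 difference in radiation effect, E79Q minus WT cells (vertical axis, ± SE), for a choice of genes with CB-839 (red) and without it (grey). Filled points are called at adjusted p under 0.05 and open ones are not. The stress and chemokine genes from CHAC1 to CDKN1A lie below 0 with the drug and above it without, whereas ANKRD1, PLAU and KLK10 lie on the same side in both.

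The contrast of both settings, the difference under CB-839 minus the difference without it, called 176 genes (1.1%), 124 lower (0.777%) and 52 higher (0.326%), against 235 lower and 323 higher with GC and length trends removed and 158 each way in DESeq2. Of the 114 genes that were lower under CB-839, 54 were called lower here and 0 higher, and of the 58 that were higher, 17 were called higher and 1 lower. The contrast contains the 12 libraries by which these genes were called, so the sign is largely set by the selection and the counts are a description. ATF4 targets had 18 of 35 members lower and 0 higher (median -0.93, against -0.026 over all genes). By themselves, without the drug, 11 of the 35 were higher and 0 lower (median 0.41). Chemokines had 5 of 17 lower (median -0.45) and NF-kB genes 4 of 24 (median -0.31), whereas squamous genes had 1 higher and 1 lower of 23 (median 0.073). By themselves, without the drug, 5 of these 23 and 4 of the 9 squamous markers were higher and 0 lower. STC2 showed the contrast at high counts. Its levels without the drug were 319.8, 332 and 337 CPM in irradiated E79Q cells, 197, 199 and 198 CPM in unirradiated E79Q cells, 230.4, 232 and 224 CPM in irradiated WT cells and 202, 204 and 207 CPM in unirradiated WT cells. Unirradiated E79Q and WT cells thus averaged 198 and 204 CPM without the drug, whereas under CB-839 they averaged 245 CPM in E79Q and 105 CPM in WT cells, and the contrast was -1.17 (SE 0.09, adjusted p = 1.06e-08).

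CHAC1 had 15.6, 17.6 and 16.98 CPM in irradiated and 12.6, 11.3 and 10.02 CPM in unirradiated E79Q cells without the drug, against 13.2, 14.2 and 11.4 CPM in irradiated and 18.4, 17.7 and 18.7 CPM in unirradiated WT cells. Here unirradiated WT cells had the highest mean, while under CB-839 they had the lowest, and the contrast was -2.43 (SE 0.28, adjusted p = 2.04e-05). The NRF2 and ATF4 target SLC7A11, not called under CB-839 in the fit of all libraries, was called without it (0.77, SE 0.17, adjusted p = 0.013) and in the contrast (-1.29, SE 0.23, adjusted p = 0.00268). GCLM was likewise not called with CB-839 in that fit (0.18 with and 0.66 without the drug, contrast -0.48, SE 0.10, adjusted p = 0.0136), but was called higher with GC and length trends removed (adjusted p = 0.0418). Of the 14 glutathione and thioredoxin targets 5 were higher without the drug and 2 lower in the contrast, and of the 34 detoxification targets 8 were higher without the drug and 4 lower in the contrast. SREBF1 (0.68, SE 0.12, adjusted p = 0.00255), VSIR (0.80, SE 0.16, adjusted p = 0.00788) and ELF3 (1.09, SE 0.20, adjusted p = 0.00308) were higher in the contrast, with differences near 0 without the drug (0.07, 0.13 and 0.04). The count of 176 was 116 without library 1 of irradiated WT cells without the drug, 284 without library 1 of irradiated E79Q cells with it, and 351 without the 4 libraries.

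**Figure D5:**
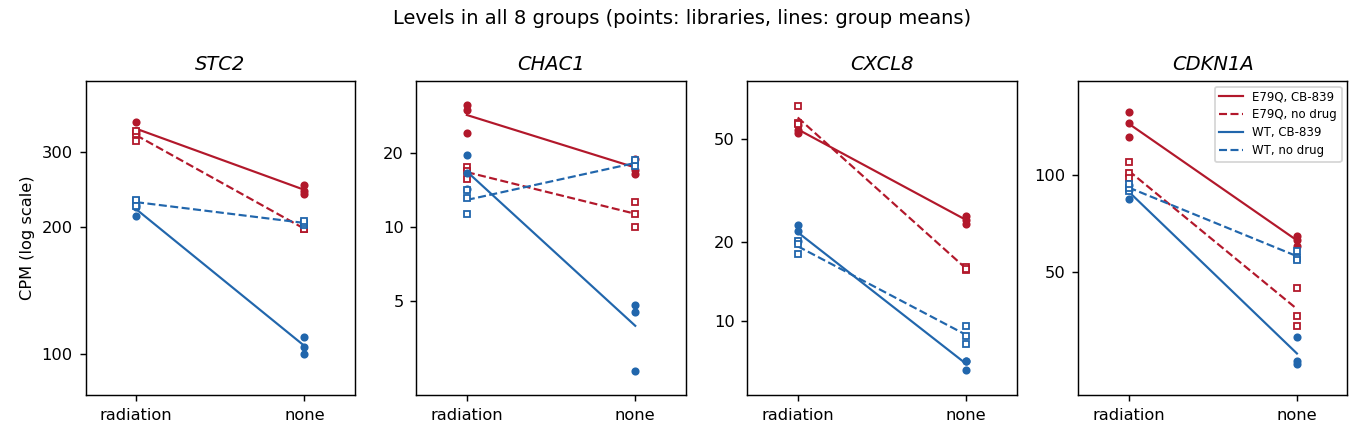
CPM (log axis) of STC2, CHAC1, CXCL8 and CDKN1A in all 24 libraries, with radiation on the left and without on the right of each panel; red is E79Q, blue is WT, filled points and solid lines are CB-839, open points and dashed lines are no drug, and lines join group means. In each panel the unirradiated WT group with CB-839 is the lowest of the 8, and in STC2 it lies at 105 CPM.

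The genes shown in full lie, on GRCh38, at chromosome 15, 40952962 to 40956519 (CHAC1), chromosome 1, 43991500 to 44031467 (SLC6A9), chromosome 9, 78297143 to 78330093 (PSAT1), chromosome 5, 173314713 to 173329503 (STC2), chromosome 4, 73869393 to 73871242 (CXCL1), chromosome 4, 73740506 to 73743716 (CXCL8), chromosome 6, 137867188 to 137883312 (TNFAIP3), chromosome 10, 90912096 to 90921276 (ANKRD1) and chromosome 20, 57648392 to 57711536 (PMEPA1). The remaining ones lie at chromosome 6, 36676460 to 36687339 (CDKN1A), chromosome 19, 51012739 to 51020175 (KLK10), chromosome 17, 17810399 to 17837002 (SREBF1), chromosome 10, 71747559 to 71773498 (VSIR) and chromosome 16, 69706996 to 69726951 (NQO1). All are annotated as protein coding, and counts cover the whole gene.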

How the data were processed

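RNA-seq libraries of SAS cells were measured in 8 groups of 3: NRF2 E79Q or WT, with or without CB-839, with or without radiation. The authors deposited raw read counts for 58735 Ensembl genes in 24 libraries, with a gene length column in base pairs that was not used for testing. STAR, HTSeq and GRCh38 are named in the submitters' processing notes; versions, strand setting and annotation release are not stated there, and all gene IDs and coordinates matched GENCODE release 29. Since strand use is not stated, reads of overlapping genes on opposite strands cannot be told apart. Groups came from the sample titles. No column was left unmapped.

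Testing used edgeR 4.0.16 under R 4.3.3: genes were filtered with filterByExpr (15956 kept), scaled with TMM, and all 8 group means were fitted by quasi-likelihood, so that the spread is shared by 24 libraries (16 residual degrees of freedom, biological coefficient of variation 7.19%). Contrasts gave the difference under CB-839, its 2 arms, the same difference without drug and the difference of both, each adjusted by Benjamini-Hochberg over all tested genes at 0.05. CPM means are given with SD over 3 libraries, where an exact permutation test of 3 against 3 could not go below p = 0.1. Depth was 14285084 to 23640197 counts per library. Alternatives used DESeq2 1.42.0 and limma 3.58.1 (voom), other scaling and filters, a replicate block, offsets for GC content and length, and fits without single libraries. The fitting code was tested on simulated counts.

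Named genes were chosen by a rule: among protein-coding genes called under CB-839 with a mean log2 CPM of at least 1, the 12 largest differences each way, the 8 smallest p among genes called in both arms with opposite signs, and in each list the 3 called members of smallest p each way (the 2 of highest expression where none was called), plus a fixed set of NRF2, ATF4, p53 and cytokine genes. Genes outside it are marked where they appear, and some genes it names are not reported here. The comparison, the lists and the rule were chosen with earlier results of these data known. The series text describes 12 samples, against 24 labelled libraries.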

Additional observations from a re-analysis of the deposited data

Results flagged for a closer look

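The first values are 2 counts that come from tests of a difference between groups: 172 genes whose radiation effect under CB-839 differed between E79Q and WT cells, and 176 genes for which that difference itself differed with and without CB-839. Groups of 3 libraries were too small for a search for outlying samples beyond the trend with GC content and the fits without single libraries. Among 109 named genes, 37 were called in the second test (edgeR's quasi-likelihood test, adjusted over all genes), 29 below and 8 above 0. Over all genes the share was 1.1%. Of the 109 named genes 65 had been called under CB-839, and so had 32 of the 37. The second test contains the libraries that gave those calls. The count and the signs are therefore largely set by the selection and are a description. The values below are log2 differences, with CB-839 minus without it, of E79Q minus WT radiation effects.

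Among stress and amino acid genes CHAC1 was at -2.43, SLC6A9 at -2.26, ASNS at -2.14 and ALDH1L2 at -1.63. GDF15 was at -1.39, SLC7A11 at -1.29, SESN2 at -1.19, STC2 at -1.17, HERPUD1 at -1.002, TRIB3 at -0.98, PSAT1 at -0.93, GPT2 at -0.86, SLC1A5 at -0.82, HSPA5 at -0.69 and ATF4 at -0.53. The tRNA synthetases CARS, GARS and WARS were at -0.77, -0.68 and -0.56. Among chemokine and NF-kB genes CXCL3 was at -1.88, CCL20 at -1.56, TNFSF15 at -1.41, CXCL8 at -1.32, CXCL1 at -1.06, TNFAIP3 at -1.04 and IRAK2 at -0.79. CDKN1A was at -1.19, SPRY4 at -0.67, SERPINB2 at -0.63 and GCLM at -0.48. On the positive side were OTUD1 at 1.18, ELF3 at 1.09, HIST1H2AC at 0.96, VSIR at 0.80, SREBF1 at 0.68, C1orf116 at 0.57, SCD at 0.51 and GLUL at 0.39.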

How the results depend on the processing

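No alternative turned the direction of a named gene that was called, whereas 11 that were not called, MDM2 among them, changed sign near 0. Of the values recomputed for 109 named genes, 3644 kept their side of the threshold, 358 lost a call and 31 gained one. Of the 65 named genes called under CB-839, 39 were called in each of 24 fits that left out 1 library, 27 with the 12 libraries fitted alone and 1, KLK10, against a null of 1.5-fold. For the difference under CB-839, 172 genes became 1 against 1.5-fold, 40 with the 12 libraries alone, 327 with GC and length offsets (165 shared), 312 with the replicate block and these offsets, and 294 with offsets and without the 4 libraries, the last an alternative chosen after seeing the data. It became 233 in DESeq2, 229 without the 4 libraries (144 shared), 162 with voom or RLE factors, 150 with upper quartile factors, 205 with no filter on low counts and 185 with a filter on CPM. The replicate block alone left 141 genes (139 shared). Numbers were not treated as pairs, since the labels say of them only that the experiment was done in triplicate. Libraries of different groups that share a number did not deviate together (correlation -0.18 to 0.09 among the 4 groups, with 4 of 24 libraries correlating best with their own number). With 3 libraries per group and GC trends in some of them, these correlations cannot show whether libraries were paired. Leaving out 1 library gave 92 to 252. In the E79Q arm, 4667 genes became 71 against 1.5-fold and 1667 with its groups alone, and 3073 to 5683 with 1 library left out. In the WT arm, 3774 became 161 against 1.5-fold, 3624 with its groups alone and 2586 to 4781 with 1 library left out. Without the drug, 201 became 5 against 1.5-fold, 572 with offsets, 528 with the replicate block and offsets, 611 with the groups alone, 319 in DESeq2, 507 without the 4 libraries, 818 with offsets as well, and 107 to 381 with 1 library left out. The contrast with and without the drug went to 11 against 1.5-fold, 558 with offsets, 507 with the replicate block and offsets, 316 in DESeq2, 351 without the 4 libraries, 625 with offsets as well, and 116 to 284 with 1 library left out. For lists, fitting the 12 libraries alone left 6 ATF4 targets, 0 tRNA synthetases, 0 unfolded protein response genes, 1 chemokine and 2 secreted factors called lower and 2 squamous genes called higher, whereas GC and length offsets gave 18, 7, 5, 6 and 6 called lower and 6 called higher. Both fits of 12 libraries had fewer degrees of freedom than the fit of 24. The count fell from 172 to 40 under CB-839 and rose from 201 to 611 without the drug, and the cause was not tested.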
